A study of Mus musculus with 12 samples.

Results

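The comparison concerns brains of mice that received both lipopolysaccharide (LPS) and N,N-dimethylacetamide (DMA), set against brains of control mice, and asks what remains away from control after both treatments. Its members are 8 of the 12 libraries in the series, chosen by their treatment label: 4 LPS+DMA libraries and 4 phosphate-buffered saline (PBS) libraries, each group with 2 females and 2 males. All mice were adult C57BL/6, an inbred strain, and the labels give no genetic change. LPS+DMA mice were injected into the peritoneal cavity with LPS at 0.5 mg/kg each day for 7 days and with DMA on the same daily schedule, and the labels give no dose of DMA. PBS mice were injected with saline on that schedule. A further arm of 4 mice, 2 of each sex, had LPS without DMA, and its values are placed beside those of the comparison. Each library came from the labelled whole brain of a separate mouse, taken on day 7. No arm received DMA without LPS, so values of LPS+DMA brains carry both agents.

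LPS is a cell wall component of Gram-negative bacteria that binds Toll-like receptor complexes on myeloid cells. Given to the body, it acts on the brain largely through blood vessels and circulating mediators, and microglia, astrocytes and endothelial cells answer with genes of complement, antigen presentation, interferon signalling and the acute phase. DMA is a small polar organic solvent used as a vehicle for drugs. Tests were made on log2(FPKM + 1), where FPKM is fragments per kilobase of gene, scaled to library size, as deposited, and differences below are on that scale unless given as FPKM. The scale understates differences of genes with low levels. A gene passed when its adjusted p (limma, Benjamini-Hochberg over all tested genes) was under 0.05.

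The libraries held 27.5 to 41.4 megareads. LPS+DMA male 1 stood apart from the others, at -60.3 on the second principal component, where the other 11 libraries lay between -11.8 and 19.8. The libraries also differed in regional content despite the whole-brain label. Gabra6, which cerebellar granule cells use to build GABA receptors, was at 74.6 FPKM in PBS female 1, listed at 0 in the other 3 PBS libraries and in 3 LPS+DMA libraries, and at 0.170 FPKM in LPS+DMA male 2. In the LPS arm Gabra6 ranged from 0 to 114 FPKM. Cerebellar genes summed to 1081 and 125 FPKM in LPS females 1 and 2, and 220 and 853 in LPS males 1 and 2. Their sums were 114 to 781 FPKM in PBS and 105 to 140 in LPS+DMA, so values of LPS brains carry regional differences too. Genes of striatal neurons were high in 3 LPS+DMA libraries and not in LPS+DMA male 2, as the regional lists show. A striatal score, used below as a covariate, therefore partly follows the arm of these libraries. Some of the results that rest on these libraries are also given without them.

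Among 19571 tested genes, 2 passed the threshold (0.0102%), and both fell in LPS+DMA. An unadjusted p under 0.05 was reached by 2235 genes (11.4%), of which 1163 were higher (5.94%) and 1072 lower (5.48%). In 1300 genes (6.64%) the 4 LPS+DMA libraries did not overlap the 4 PBS libraries, 727 of them higher (3.71%) and 573 lower (2.93%). This split rests on the scaling: with every library brought to equal totals, 204 genes lay higher and 1399 lower without overlap, and the median of all genes moved from 0.00014 to -0.10. The typical distance from control was small, with a median absolute difference of 0.17, and 166 genes differed by more than 1, 49 of them without overlap. For 87.9% of genes the 95% interval of the difference lay within -1 and 1.

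**Figure D1:**
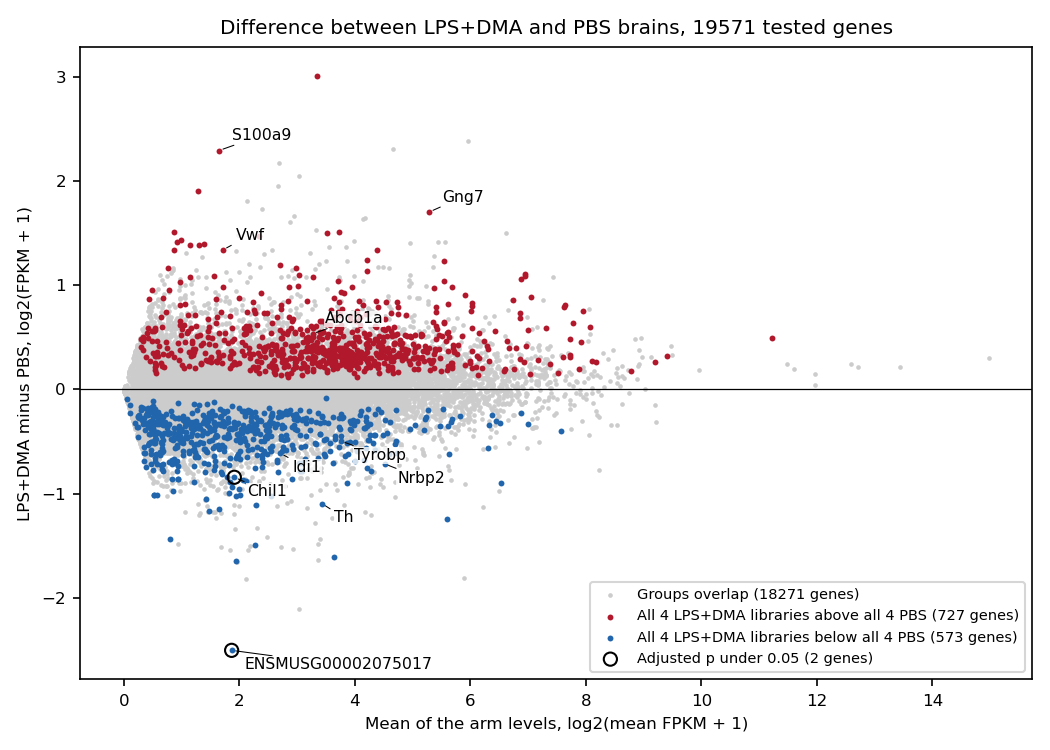
Difference between the LPS+DMA and PBS arms for each of 19571 tested genes (vertical, log2(FPKM + 1)) against the mean level of both arms (horizontal, log2 of mean FPKM + 1). Red and blue points are the 727 and 573 genes whose libraries did not overlap, and circles mark the 2 genes that passed the threshold, both below 0.

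Chil1, which encodes a secreted chitinase-like glycoprotein of astrocytes and macrophages, fell in LPS+DMA. The gene, ENSMUSG00000064246, lies on chromosome 1 from 134109914 to 134117919 on the plus strand (GRCm39). PBS females 1 and 2 had 3.28 and 3.11 FPKM and PBS males 1 and 2 had 4.80 and 4.95, against 1.35 and 1.18 in LPS+DMA females and 2.29 and 2.48 in LPS+DMA males. Every LPS+DMA library lay below every PBS library, and within each arm the males were higher than the females. The difference was -0.84 (95% interval -1.06 to -0.63, adjusted p = 0.0269), close in size in males (-0.80) and females (-0.89). LPS libraries held 4.07 to 6.47 FPKM, so Chil1 did not stay at an LPS level but lay under the control. The call depended on the libraries in the fit: adjusted p ranged from 0.0413 to 0.213 with each of the 12 libraries left out in turn, and it was lost without any PBS or LPS+DMA library or either LPS male, while the difference stayed between -0.88 and -0.81.

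The other gene that fell is an unnamed short RNA of 155 bases, ENSMUSG00002075017, annotated as miscellaneous RNA on chromosome 10 from 91907523 to 91907677 on the minus strand (GRCm39), and it is named although it lies outside the rule for named genes. PBS libraries held 46, 22, 64 and 50 reads of it and LPS+DMA libraries held 3, 2, 1 and 3, so every LPS+DMA value lay at or under the floor of 3 reads. In FPKM the PBS mean was 7.92 ± 3.25 and the LPS+DMA mean 0.494 ± 0.228 (SD, n = 4 each; difference -2.51, adjusted p = 0.0269). LPS libraries lay between, at 1.45 to 6.92 FPKM. The call was lost on leaving out any of 8 libraries (adjusted p 0.0100 to 0.213).

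No other gene passed. The 9 coding genes that followed Chil1 by p on the lower side were Nrbp2, Gsta4, Wsb1, Glt8d1, Tatdn3, Acaa1a, Rab37, Serpinb1a and Fam174c, with adjusted p of 0.110 to 0.290. Nrbp2, a pseudokinase of neurons and glia, had 29.6, 23.6, 29.4 and 31.1 FPKM in PBS and 16.2, 15.9, 18.7 and 16.7 in LPS+DMA. Gsta4, a glutathione transferase that removes aldehydes formed by lipid peroxidation, had 28.0, 26.7, 28.7 and 32.9 FPKM in PBS and 18.5, 17.2, 18.5 and 19.7 in LPS+DMA. In both genes the arms were separated by a gap wider than the spread within LPS+DMA. The differences were -0.72 (95% interval -0.96 to -0.47, adjusted p = 0.110) for Nrbp2 and -0.62 (-0.86 to -0.39, adjusted p = 0.173) for Gsta4.

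LPS brains held Nrbp2 at 27.4 ± 5.34 FPKM and Gsta4 at 37.0 ± 5.06 FPKM (SD, n = 4), and in both genes every LPS library lay above every LPS+DMA library. Serpinb1a, an inhibitor of neutrophil serine proteases, was at 7.03 ± 2.31 FPKM in PBS and 1.91 ± 1.08 in LPS+DMA, with LPS at 10.5 ± 3.50. Rab37, a small GTPase of secretory vesicles, was at 3.21 ± 1.07, 5.26 ± 2.06 and 0.840 ± 0.258 FPKM in the same order. Acaa1a, a peroxisomal thiolase of fatty acid oxidation, was at 13.5 ± 0.316, 11.7 ± 0.908 and 8.70 ± 1.53 FPKM. All 9 of these genes had every LPS+DMA library below every PBS library, against 2.93% of all genes. They were picked by p on these same libraries, so this count adds no separate evidence.

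On the higher side the 10 coding genes with the smallest p were Smim40, Abcb1a, Macrod2, Chst15, Strn, mt-Nd5, Gpr158, Plcl2, Otub1 and Vwf, at adjusted p of 0.110 to 0.290. Plcl2, a phospholipase C-like protein without catalytic activity, was the tightest of them: PBS libraries held 8.45, 9.90, 8.70 and 8.36 FPKM and LPS+DMA libraries 15.5, 14.6, 14.8 and 14.9. Its difference was 0.70 (95% interval 0.38 to 1.01, adjusted p = 0.290), and it passed only when LPS female 2 was left out (adjusted p = 0.0482). Chst15, which sulfates chondroitin chains of the extracellular matrix, had 3.43 to 6.05 FPKM in PBS and 6.07 to 10.4 in LPS+DMA. Otub1, a deubiquitinase, had 44.9 to 49.0 FPKM in PBS and 57.8 to 84.6 in LPS+DMA. Smim40, a small membrane protein, was at 0.134 ± 0.182 FPKM in PBS and 2.13 ± 1.06 in LPS+DMA, on 0 to 12 reads against 22 to 93 reads. Genes were tested at 0.5 FPKM or more in at least 2 libraries, and no PBS library reached that for Smim40. It entered the test through treated libraries alone.

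**Figure D2:**
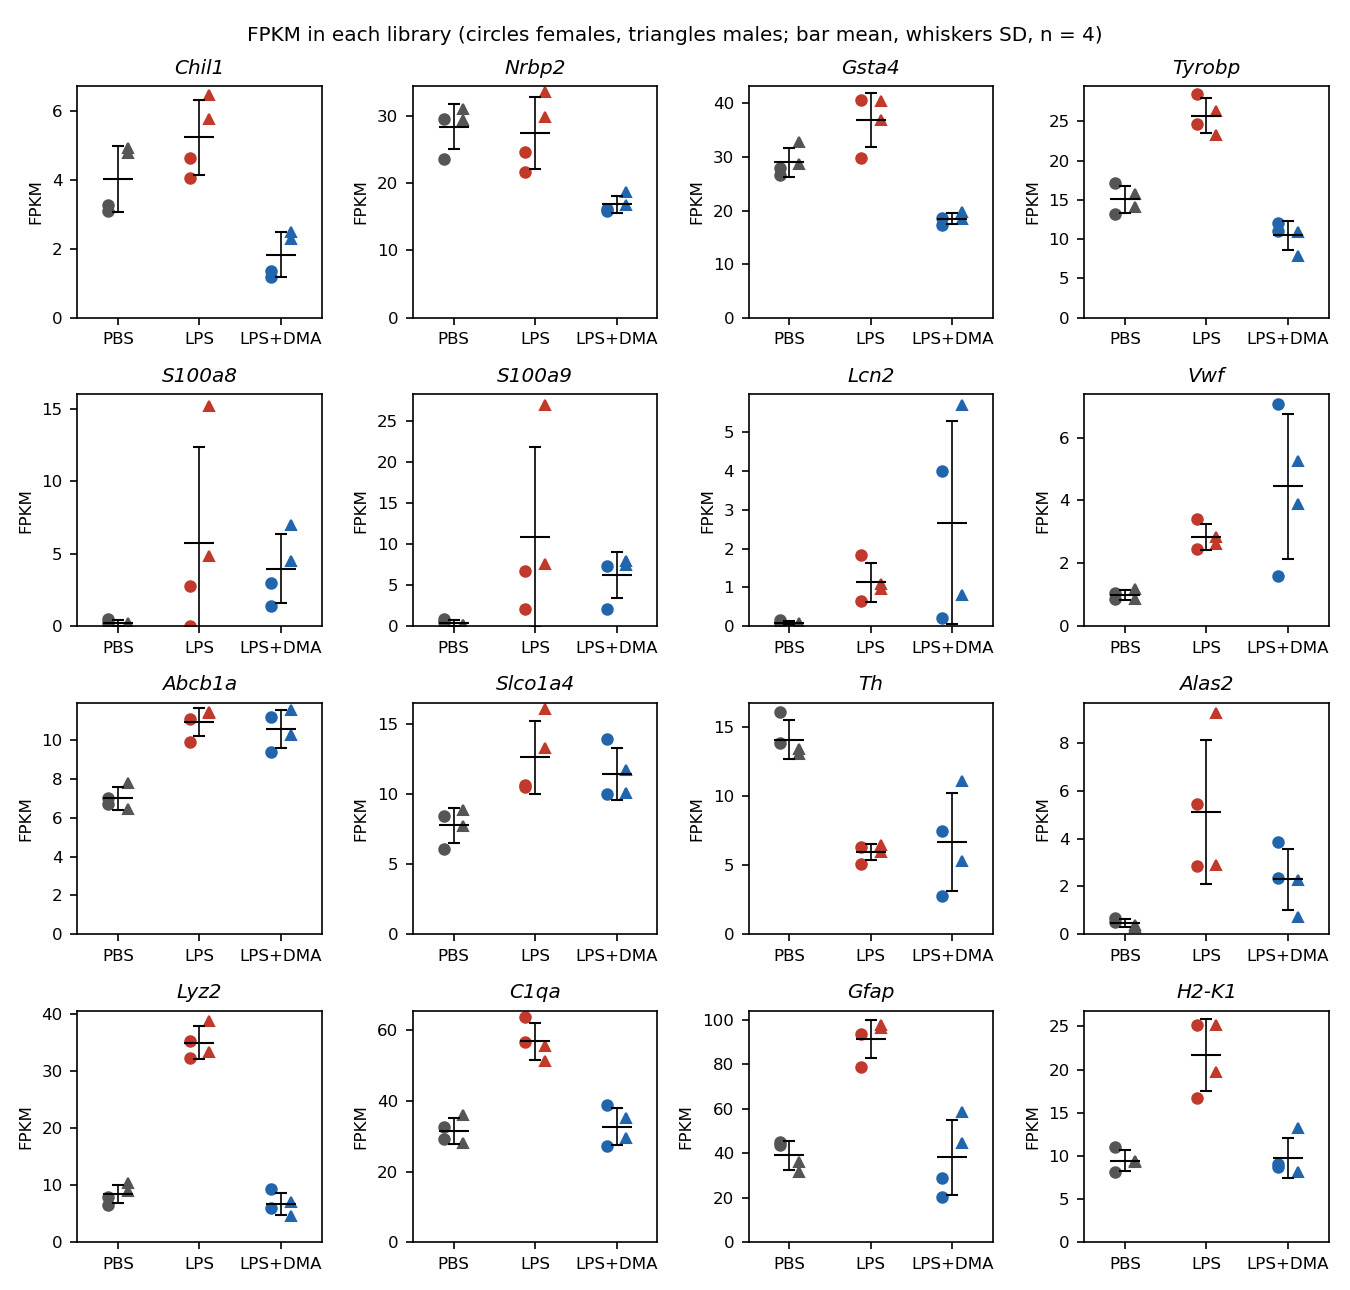
FPKM of 16 genes in each of the 12 libraries by arm, with circles for females, triangles for males, and the mean with its SD (n = 4). Chil1, Nrbp2, Gsta4 and Tyrobp lay below PBS in LPS+DMA, the S100a8 to Alas2 panels lay away from PBS in LPS+DMA and in LPS (apart from 1 LPS library with S100a8 at 0), and Lyz2, C1qa, Gfap and H2-K1 overlapped PBS in LPS+DMA.

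The LPS and LPS+DMA comparisons share the 4 PBS libraries, so their values are given side by side and not as evidence for each other. Several inflammatory genes that were high in LPS brains lay at PBS levels in LPS+DMA. Lyz2, the lysozyme of macrophages and microglia, was at 6.57, 8.01, 9.11 and 10.3 FPKM in PBS and 6.01, 9.29, 7.05 and 4.56 in LPS+DMA, while LPS libraries held 32.4 to 38.9. Its LPS+DMA difference was -0.32 (95% interval -0.72 to 0.08, adjusted p = 0.518), an interval that includes 0 and ends below the LPS difference of 1.93. C1qa, which initiates the classical complement cascade, was at 31.6 ± 3.67 FPKM in PBS and 32.8 ± 5.30 in LPS+DMA, beside 56.9 ± 5.12 in LPS (difference 0.05, 95% interval -0.24 to 0.34, turning to -0.10 with equal totals). H2-K1, a class I antigen-presenting gene, was at 9.48 ± 1.16, 21.7 ± 4.19 and 9.80 ± 2.30 FPKM (0.03, -0.34 to 0.40, turning to -0.11 with equal totals). Ifit3, an interferon-induced inhibitor of viral translation, was at 5.89 ± 1.03, 12.1 ± 2.69 and 5.62 ± 0.529 FPKM (-0.05, -0.40 to 0.30). For these genes a distance from control above the interval bounds was not seen, and a smaller one was not detectable with 4 mice an arm. In LPS against PBS, 2 of 19571 genes passed the threshold (0.0102%), among them Lyz2 (adjusted p = 0.00673). The higher LPS values of C1qa, H2-K1 and Ifit3 did not pass (adjusted p = 0.117, 0.117 and 0.142).

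Saa3, an acute-phase serum amyloid, had no read in any PBS library and 0, 2, 64 and 2 reads in LPS+DMA females 1 and 2 and males 1 and 2, against 164 to 258 reads in LPS. Only LPS+DMA male 1 therefore held Saa3 above the floor of 3 reads, at 0.750 FPKM. Gfap, the intermediate filament of astrocytes, had nearly equal means of 39.2 ± 6.55 FPKM in PBS and 38.2 ± 16.9 in LPS+DMA, with a wider spread after both treatments. LPS+DMA females had 20.5 and 29.1 FPKM, below all 4 PBS libraries, and LPS+DMA males had 44.7 and 58.7, above both PBS males (31.4 and 36.2). The differences were -0.84 in females and 0.59 in males, and the test of that difference between sexes gave adjusted p = 0.838.

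By list, 5 of 16 complement genes lay above 0 in LPS+DMA (median -0.04), with an LPS median of 0.61. For MHC class I presentation 6 of 11 lay above 0 (median 0.02, LPS 0.40, turning to -0.11 with equal totals), and for lysosomal and phagocytic microglia 10 of 21 (median -0.04, LPS 0.45). Over all tested genes, 50.1% lay above 0 with a median of 0.00014. No gene of these 3 lists passed the threshold in LPS+DMA.

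Some immune lists lay mostly below control. MHC class II presentation, by which phagocytes show peptides to helper T cells, had 1 of 8 genes above 0 and a median of -0.47, beside an LPS median of 0.38. With a striatal score as a covariate the median was -0.24 with 1 of 8 above 0, and the difference was -0.50 for Cd74 and -0.54 for H2-Eb1, a class II beta chain, against -0.82 for H2-Eb1 without it. Cd74, the invariant chain that chaperones class II molecules, had 4.25, 3.50, 1.36 and 3.35 FPKM in PBS and 0.785, 0.477, 0.273 and 1.76 in LPS+DMA, where LPS+DMA male 2 overlapped PBS male 1 (difference -1.18, adjusted p = 0.324). H2-Eb1 was at 1.23 ± 0.453 FPKM in PBS and 0.263 ± 0.267 in LPS+DMA. The list mean was below the PBS mean in each LPS+DMA library, by -0.39, -0.47, -0.52 and -0.44. The levels rest on few reads, 15 to 77 for Cd74 and 2 to 42 for H2-Eb1 in LPS+DMA.

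Homeostatic microglia genes, which mark the resting state of the brain's resident macrophages, had 2 of 17 above 0 and a median of -0.43 (LPS 0.32). In tissue RNA, fewer cells of a type and less RNA per cell cannot be told apart. LPS+DMA male 1 held most of the distance: the list mean was -1.15 from PBS there and -0.04, -0.11 and -0.27 in the other 3, and without that library the median was -0.13 with 3 of 17 above 0. Siglech, a sialic acid-binding receptor of microglia, lay lower in all 4 (3.14, 4.15, 4.49 and 3.56 FPKM in PBS, 2.88, 2.00, 1.10 and 2.95 in LPS+DMA). Its difference was -0.62, and -0.41 without LPS+DMA male 1. Trem2, the lipid-sensing receptor that signals through Tyrobp, had 1.71, 1.52, 2.06 and 2.37 FPKM in PBS and 1.57, 1.29, 0.617 and 0.746 in LPS+DMA. Tyrobp, that adaptor, was at 13.2, 17.1, 14.1 and 15.7 FPKM in PBS and 12.1, 11.1, 10.9 and 7.84 in LPS+DMA, so that its 4 LPS+DMA libraries lay below every PBS library while LPS libraries lay above, at 23.3 to 28.5 (difference -0.50, adjusted p = 0.324). Ctss, a lysosomal cysteine protease that processes the invariant chain, was at 44.0 ± 7.48 FPKM in PBS and 29.0 ± 10.5 in LPS+DMA, beside 87.6 ± 2.79 in LPS. Ncf1, a cytosolic subunit of the phagocyte oxidase, was at 1.79 ± 0.164, 2.49 ± 0.340 and 0.934 ± 0.509 FPKM. It was the lowest gene of the prostaglandin and oxidant enzyme list (4 of 13 above 0, median -0.04). Lower values of these single genes do not stand for all microglial genes. The lysosomal and phagocytic microglia list had 10 of 21 above 0, with differences from -0.80 to 1.09, the highest being Lpl.

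Interferon response genes had 6 of 35 above 0 and a median of -0.18 (LPS 0.32), and the list mean was below PBS in each LPS+DMA library, by -0.08 to -0.27. With the striatal score as a covariate the median was -0.09. Ifi27l2a, an interferon-induced mitochondrial protein, had 2.19, 2.28, 2.76 and 4.09 FPKM in PBS and 1.90, 0.628, 0.527 and 0.498 in LPS+DMA, without overlap. Isg15, a ubiquitin-like modifier, was at 1.65 ± 0.452 and 1.34 ± 0.274 FPKM with overlapping libraries, beside 5.17 ± 1.71 in LPS. No interferon gene passed the threshold, and 3 of 35 were without overlap on the lower side, against 2.93% of all genes.

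Some genes lay away from control in LPS and in LPS+DMA in the same direction. S100a8 and S100a9 encode the subunits of calprotectin, the abundant cytosolic calcium- and zinc-binding protein of neutrophils. S100a9 had 0.441, 0.831, 0.102 and 0.119 FPKM in PBS and 2.02, 7.25, 7.48 and 7.95 in LPS+DMA, beside 2.09 to 26.9 in LPS. S100a8 had 0.199, 0.469, 0 and 0.179 FPKM in PBS and 1.35, 2.99, 4.49 and 6.98 in LPS+DMA, beside 0 to 15.2 in LPS. Each LPS+DMA library lay above each PBS library for both genes, on 32 to 128 reads against 0 to 16, with differences of 2.30 (95% interval 1.16 to 3.43, adjusted p = 0.316) and 1.91 (0.68 to 3.13, adjusted p = 0.325).

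Retnlg, a resistin-like secreted protein of neutrophils, also lay higher without overlap, on 6 to 12 reads against 0 to 2. Of the 13 neutrophil genes 7 passed the filter, and S100a8 and Retnlg did so through treated libraries alone, with no PBS library at 0.5 FPKM, so no count over the list is given. The other 6 were below the filter: Camp, Mmp8, Cxcr2, Ly6g, Elane and Mpo held at most 19 reads in any LPS+DMA library, and Ly6g, a defining surface protein of mouse neutrophils, had 0 reads in 3 of 4. Summed over the list, PBS held 2.04 to 4.16 FPKM, LPS 5.11 to 54.7 and LPS+DMA 5.41 to 18.6. Red blood cell genes lay higher too, with 8 of 9 above 0 (median 0.49, LPS 1.94) and a summed level of 134 to 194 FPKM in PBS and 114 to 381 in LPS+DMA, beside 330 to 993 in LPS. With choroid plexus and red blood cell scores as covariates the differences were 1.69 for S100a9 (adjusted p = 0.154), 1.23 for S100a8 (adjusted p = 0.255) and 0.26 for Retnlg, against 0.48 for Retnlg without them. The red blood cell median was 0.22 without LPS+DMA female 2 and 1.19 without LPS+DMA male 1, and the list mean in the LPS+DMA libraries was 0.70, 1.17, -0.47 and 0.64 from PBS.

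Alas2, the enzyme that starts heme synthesis in red cell precursors, was the red blood cell gene without overlap, at 0.310 to 0.699 FPKM in PBS and 0.724 to 3.86 in LPS+DMA, beside 2.84 to 9.27 in LPS. Lcn2, a siderophore-binding acute-phase protein, was at 0.140, 0.062, 0.0812 and 0.0237 FPKM in PBS and 0.201, 3.99, 5.70 and 0.791 in LPS+DMA. Its 4 LPS+DMA libraries lay above PBS but spanned a wide range, with LPS+DMA female 1 next to control and female 2 and male 1 above all LPS libraries (0.648 to 1.84). The difference was 1.44 (95% interval 0.44 to 2.43, adjusted p = 0.344), and 1.01 without LPS+DMA male 1. Lrg1, a secreted leucine-rich glycoprotein induced in vessels, had 0.303 to 0.706 FPKM in PBS and 0.624, 2.07, 3.01 and 1.83 in LPS+DMA, and Chil3, a chitinase-like protein of myeloid cells, 0 to 0.141 and 0.108, 1.40, 1.16 and 0.848. In Lcn2, Lrg1, Chil3, S100a9 and S100a8 alike, the lowest LPS+DMA library was female 1. No PBS library held Lcn2 or Chil3 at 0.5 FPKM, so both passed the filter through treated libraries alone.

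Some brain endothelial genes had higher values than control in both arms, and none of the list passed the threshold in LPS+DMA. Abcb1a, the P-glycoprotein efflux pump of the blood-brain barrier, had 7.01, 6.72, 6.48 and 7.82 FPKM in PBS and 9.40, 11.2, 10.2 and 11.6 in LPS+DMA, beside 9.91 to 11.5 in LPS. Its LPS+DMA libraries did not overlap PBS and covered the LPS range (difference 0.53, 95% interval 0.32 to 0.75, adjusted p = 0.236, and 0.58 for LPS). Slco1a4, an organic anion transporter of the same membrane, had 8.45, 6.05, 7.68 and 8.83 FPKM in PBS and 10.01, 13.9, 10.1 and 11.7 in LPS+DMA, beside 10.5 to 16.01 in LPS. Vwf, the clotting factor stored in endothelial granules, had 1.05, 0.866, 0.859 and 1.17 FPKM in PBS and 1.58, 7.07, 3.87 and 5.26 in LPS+DMA, beside 2.46 to 3.41 in LPS. In 3 LPS+DMA libraries Vwf exceeded every LPS library, and without LPS+DMA female 1 the difference of 1.34 became 1.69 and passed (adjusted p = 0.0272). Cldn5, a tight junction protein, was at 20.7 ± 2.04 FPKM in PBS and 28.0 ± 4.91 in LPS+DMA, beside 31.1 ± 4.88 in LPS, with overlap.

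The endothelium and barrier list had 15 of 20 genes above 0 (median 0.22, LPS 0.40), against 50.1% of all genes, and 2 without overlap, against 3.71% of all genes. Without LPS+DMA female 2 the median was 0.11 with 13 of 20 above 0. Its summed level was 180 to 213 FPKM in PBS and 199 to 291 in LPS+DMA, beside 246 to 293 in LPS, and with equal totals the median was 0.09 with 14 of 20 above 0. Th, tyrosine hydroxylase of catecholamine neurons, was lower in both arms: 13.9, 16.1, 13.1 and 13.4 FPKM in PBS, 5.09 to 6.45 in LPS, and 7.52, 2.77, 5.35 and 11.1 in LPS+DMA (difference -1.10, adjusted p = 0.324). The list of monoamine and acetylcholine neuron genes was not lower in both arms. It had 3 of 14 above 0 in LPS+DMA (median -0.43), with an LPS median of 0.75. Th marks nuclei of the midbrain and the olfactory bulb, and regional content differed between libraries, and with the striatal score as a covariate the Th difference was -0.51 (adjusted p = 0.727), while with a forebrain-hindbrain score it was -1.08.

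**Figure D3:**
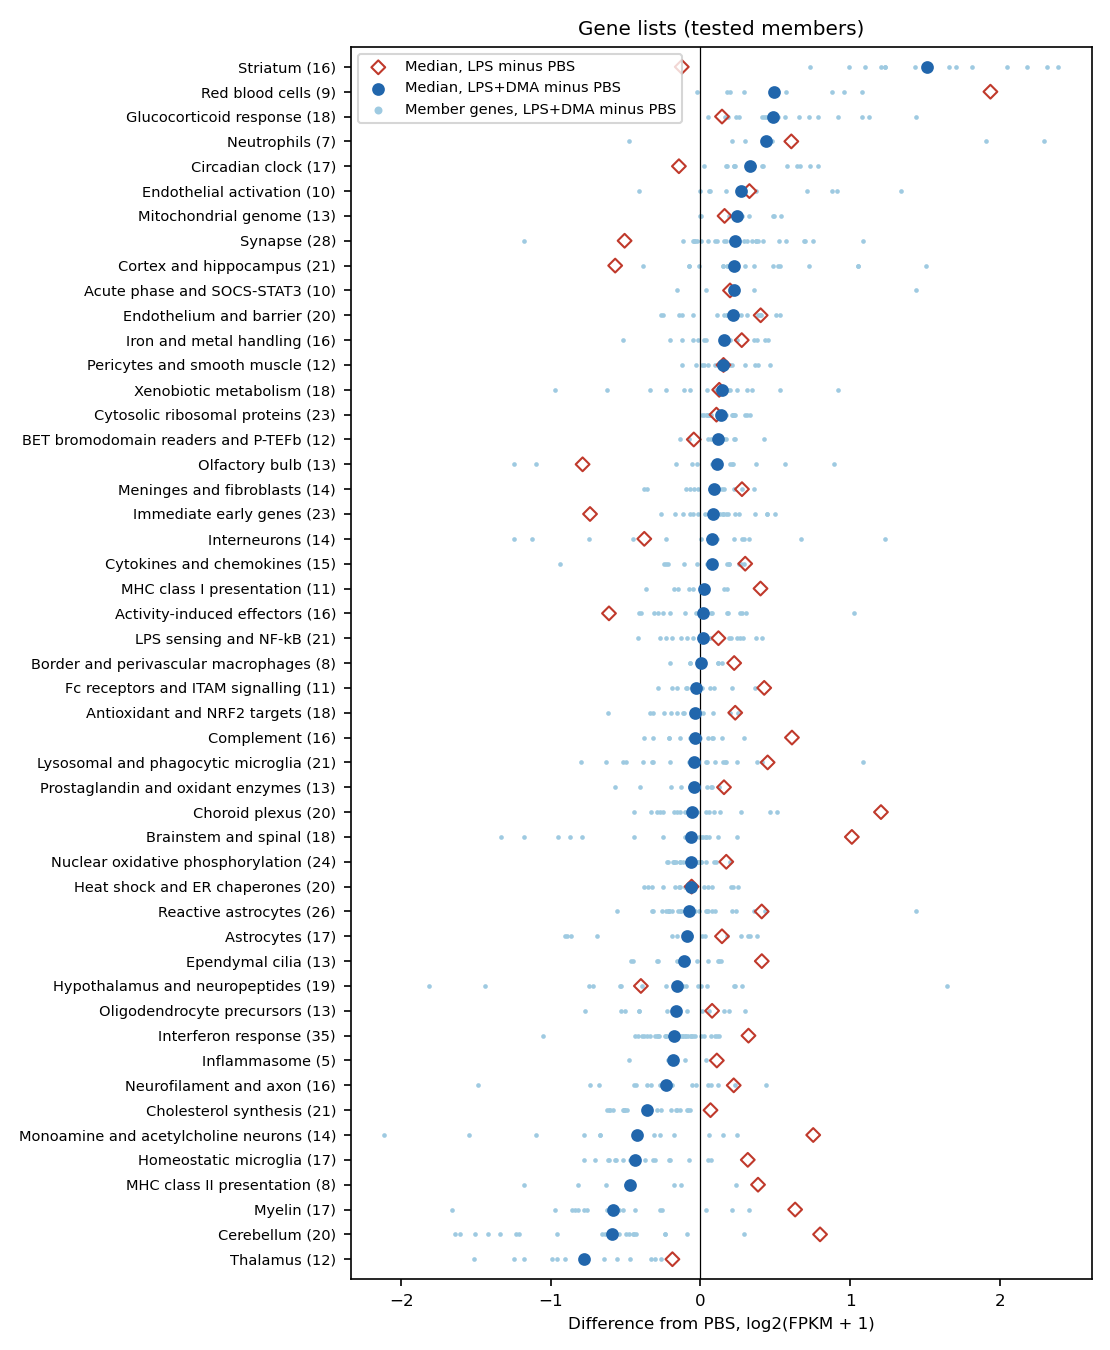
Gene lists ordered by the median LPS+DMA minus PBS difference (filled circles) with their member genes (small points) and the median LPS minus PBS difference (open diamonds), on the log2(FPKM + 1) scale. Cholesterol synthesis lay at -0.36 in LPS+DMA and 0.07 in LPS, complement at -0.04 and 0.61, and striatum at 1.52 and -0.12.

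Cholesterol synthesis genes lay below control in LPS+DMA. The brain makes its own cholesterol, in glia and neurons, through the mevalonate pathway, whose genes are induced together by the transcription factor SREBP2, which acts at promoters with partners such as NF-Y. All 21 tested genes of the list were below 0 (median -0.36, range -0.62 to -0.07), against 49.9% of all genes, and 8 were without overlap on the lower side, against 2.93% of all genes. The LPS median was 0.07. In each LPS+DMA library the list mean was below the PBS mean, by -0.20, -0.51, -0.43 and -0.28, and the 4 PBS libraries lay between -0.11 and 0.13.

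Among early steps, Pmvk, which phosphorylates phosphomevalonate, had 17.5, 14.9, 18.2 and 18.1 FPKM in PBS and 12.7, 12.2, 7.61 and 11.3 in LPS+DMA (difference -0.62, 95% interval -0.94 to -0.30). Idi1, which isomerises isopentenyl diphosphate, had 6.63, 5.91, 7.48 and 8.20 FPKM in PBS and 5.31, 3.95, 3.30 and 4.60 in LPS+DMA (-0.61, -0.95 to -0.28). Sc5d, a desaturase of a late step, had 15.6, 13.5, 17.7 and 18.7 FPKM in PBS and 12.8, 9.67, 10.2 and 11.8 in LPS+DMA (-0.52, -0.78 to -0.25). In all 3 genes each LPS+DMA library lay below each PBS library and LPS libraries lay in or above the PBS range, and the adjusted p was 0.324. Of the other 5 without overlap, named after their values were seen, Mvd, Sqle, Cyp51, Msmo1 and Nsdhl, which act between mevalonate and the last sterol intermediates, the differences were -0.58, -0.51, -0.50, -0.51 and -0.49.

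None of the 21 passed the threshold, and 11 had an unadjusted p under 0.05 on the lower side, against 5.48% of all genes. The pattern did not rest on LPS+DMA male 1: without it 20 of 21 lay below 0 with a median of -0.33, and 12 were without overlap, against 5.59% of all genes in that setting. Sqle was at -0.33 there. With a striatal score as a covariate 21 of 21 lay below 0 with a median of -0.32, and with equal totals 21 of 21 with a median of -0.49. Myelin genes, which mark cells with high cholesterol synthesis, lay lower as well, at a median of -0.59 with LPS+DMA male 1 and 0.02 without it.

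**Figure D4:**
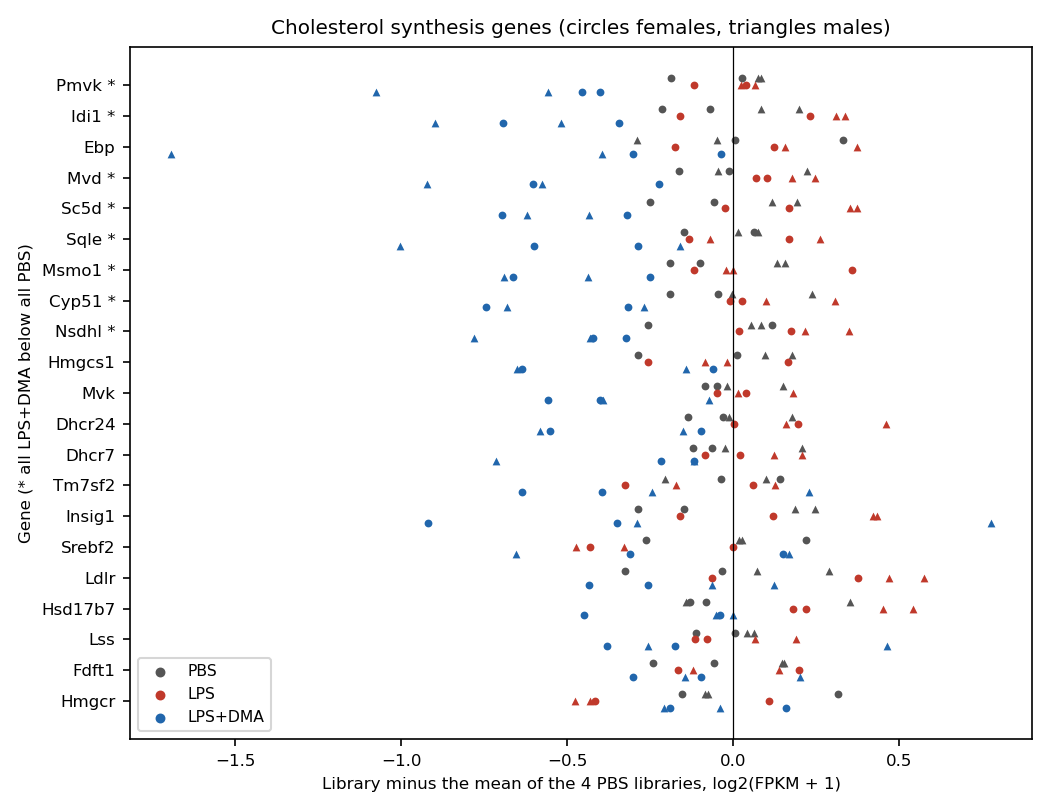
The 21 tested cholesterol synthesis genes, with each library's level minus the mean of the 4 PBS libraries (horizontal, log2(FPKM + 1)), circles for females and triangles for males. Asterisks mark the 8 genes whose 4 LPS+DMA libraries (blue) all lay below the 4 PBS libraries (grey).

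As these genes moved in 1 direction, the 250 bases before their start sites were read from RefSeq promoter windows (GRCm38.p6), a build other than that of the deposited coordinates, and searched on both strands for CCAAT, the core bound by NF-Y, a search chosen after the values were seen. Windows were found for 16 of the 21 genes, 19 windows in all, and 16 windows held the motif (84.2%), at least 1 for each of the 16 genes, against 33.8% of all 32851 windows. A Pmvk window at chr3:89459321-89459570 held no motif and is not shown. Windows of 5 genes without overlap follow, 5′ to 3′, with CCAAT or its complement ATTGG in capitals. They lie at chr3:89454291-89454540 on the plus strand, chr13:8885356-8885605 on the plus strand, chr9:42264301-42264550 on the minus strand, chr5:4104698-4104947 on the minus strand, and chrX:72918271-72918520 on the plus strand, in this order.
Pmvk: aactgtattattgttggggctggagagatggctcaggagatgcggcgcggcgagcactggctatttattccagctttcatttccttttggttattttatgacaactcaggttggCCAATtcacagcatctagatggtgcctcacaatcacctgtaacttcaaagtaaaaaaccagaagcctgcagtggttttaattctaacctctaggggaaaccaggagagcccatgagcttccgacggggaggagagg
Idi1: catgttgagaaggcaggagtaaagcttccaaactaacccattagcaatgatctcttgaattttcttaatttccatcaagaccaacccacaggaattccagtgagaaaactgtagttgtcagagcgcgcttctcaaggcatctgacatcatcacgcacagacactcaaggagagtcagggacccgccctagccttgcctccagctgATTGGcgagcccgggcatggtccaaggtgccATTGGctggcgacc
Sc5d: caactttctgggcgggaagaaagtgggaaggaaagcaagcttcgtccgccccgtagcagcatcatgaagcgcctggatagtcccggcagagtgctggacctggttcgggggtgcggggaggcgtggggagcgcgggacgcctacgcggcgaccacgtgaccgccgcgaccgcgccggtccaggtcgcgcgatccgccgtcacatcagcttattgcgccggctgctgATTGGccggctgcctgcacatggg
Cyp51: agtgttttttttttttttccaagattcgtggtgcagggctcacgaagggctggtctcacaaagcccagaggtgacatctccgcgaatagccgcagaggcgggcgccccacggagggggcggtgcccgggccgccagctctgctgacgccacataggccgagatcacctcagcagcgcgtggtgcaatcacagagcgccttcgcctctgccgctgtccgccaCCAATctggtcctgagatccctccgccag
Nsdhl: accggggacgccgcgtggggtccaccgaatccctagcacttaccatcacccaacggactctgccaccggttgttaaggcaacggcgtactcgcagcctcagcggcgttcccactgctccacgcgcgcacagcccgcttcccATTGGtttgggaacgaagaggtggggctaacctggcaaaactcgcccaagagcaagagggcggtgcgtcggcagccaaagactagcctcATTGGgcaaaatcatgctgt
Counted from the start site back to the first base in capitals, the motif stood 24 bases away in Sc5d, 29 in Cyp51, 45 and 14 in Idi1, 109 and 20 in Nsdhl, and 136 in Pmvk. A match is a stretch of letters and says nothing of binding in these brains.

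Circadian clock genes lay above control. The clock is a feedback loop in which CLOCK and BMAL1 switch on Per, Cry and Nr1d genes through E-boxes, and its output genes such as Tef and Dbp cycle over the day, so levels depend on the hour of sampling, which the labels do not give. All 17 tested genes were above 0 (median 0.33), against 50.1% of all genes, with an LPS median of -0.14, and 2 were without overlap, against 3.71% of all genes. Tef, a transcription factor of clock output, had 37.0, 37.3, 34.2 and 35.5 FPKM in PBS and 47.9, 51.4, 80.2 and 52.9 in LPS+DMA (difference 0.65, 95% interval 0.24 to 1.05, adjusted p = 0.324). Nr1d1, the repressor of the loop, had 24.4, 26.3, 23.6 and 23.3 FPKM in PBS and 33.5, 28.2, 31.6 and 30.3 in LPS+DMA (0.33, adjusted p = 0.388, and 0.18 with equal totals). Both genes were higher in every LPS+DMA library. Without LPS+DMA male 1 the difference was 0.45 for Tef and 0.29 for Nr1d1.

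The list holds genes of both limbs of the loop, which peak at opposite hours, and a part of sampling hour in these values was not tested. Without LPS+DMA male 1 the median was 0.28 with 15 of 17 above 0, and with equal totals 0.19 with 16 of 17. Per1, named after its values were seen, is both a clock gene and a target of glucocorticoids, and had 60.6 FPKM in LPS+DMA male 1 against 13.6 to 15.7 in the other 3 LPS+DMA libraries and 9.14 to 13.97 in PBS. The E-box CACGTG, which reads the same on both strands, was found in 6 of 21 windows (28.6%) of 15 clock genes with a window, against 6.02% of all windows. The 6 windows belonged to 5 genes. A window of Tef and that of Ciart, a repressor in the loop, are shown with the E-box in capitals, at chr15:81811164-81811413 on the plus strand and chr3:95882229-95882478 on the minus strand.
Tef: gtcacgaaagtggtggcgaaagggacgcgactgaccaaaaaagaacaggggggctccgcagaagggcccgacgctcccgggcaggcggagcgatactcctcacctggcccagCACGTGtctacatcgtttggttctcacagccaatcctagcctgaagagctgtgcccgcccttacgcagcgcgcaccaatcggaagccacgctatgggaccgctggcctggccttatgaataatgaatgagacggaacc
Ciart: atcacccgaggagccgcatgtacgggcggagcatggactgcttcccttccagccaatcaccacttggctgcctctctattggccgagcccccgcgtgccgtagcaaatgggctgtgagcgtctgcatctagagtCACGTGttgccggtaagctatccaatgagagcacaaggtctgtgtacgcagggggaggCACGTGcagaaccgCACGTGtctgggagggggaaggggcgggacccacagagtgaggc

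Glucocorticoid-induced genes, which report adrenal stress hormone acting through its nuclear receptor, were above 0 in 18 of 18 (median 0.48, LPS 0.14), and this rested on LPS+DMA male 1. The list mean was 1.62 above PBS in that library, 0.71 in LPS+DMA female 2, and 0.03 and -0.04 in LPS+DMA female 1 and male 2. Without LPS+DMA male 1 the median was 0.14 with 11 of 18 above 0, and with the striatal score as a covariate it was 0.28. Fkbp5, a co-chaperone of the receptor, had 2.83 to 3.95 FPKM in PBS and 3.70, 9.01, 19.3 and 5.30 in LPS+DMA. Its difference was 1.08, and 0.63 without LPS+DMA male 1. Sult1a1, a sulfotransferase, had 3.50 to 6.26 FPKM in PBS and 6.22, 15.04, 11.8 and 7.68 in LPS+DMA. Lcn2 and Per1 are also members of this list, and Lcn2 passed the filter through treated libraries alone.

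**Figure D5:**
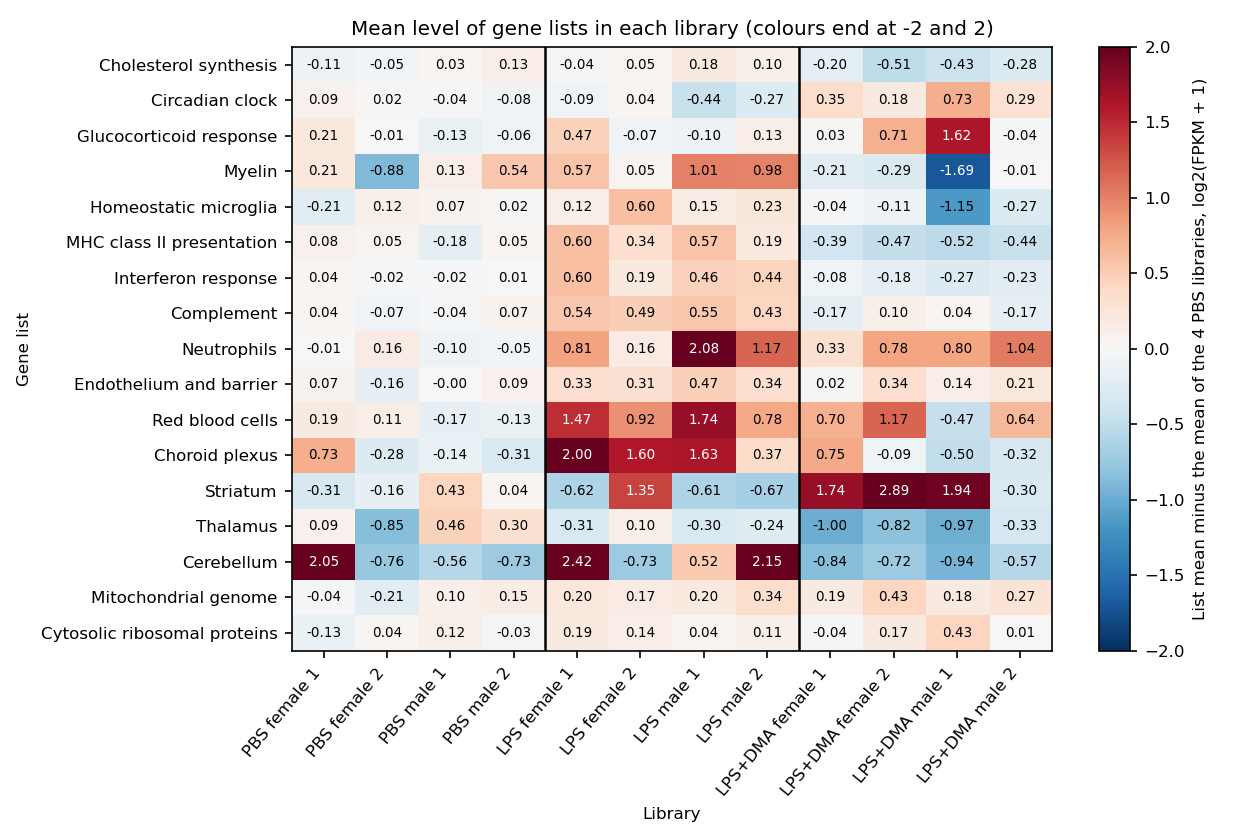
Mean level of 17 gene lists in each of the 12 libraries, as the difference from the mean of the 4 PBS libraries (log2(FPKM + 1); number in each cell, colour from -2 to 2). Cholesterol synthesis was below 0 and the clock list above 0 in all 4 LPS+DMA libraries, while glucocorticoid, myelin and microglia values were most extreme in LPS+DMA male 1.

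Among the lists, striatal genes had the highest median. Medium spiny neurons of the striatum are marked by dopamine receptors and their signalling proteins, and all 16 striatal genes were above 0 with a median of 1.52 (LPS -0.12). Ppp1r1b, the dopamine-regulated phosphatase inhibitor of these cells, had 24.6, 15.5, 24.0 and 21.4 FPKM in PBS and 121, 297, 255 and 18.1 in LPS+DMA (difference 2.39, 95% interval 0.89 to 3.89). LPS+DMA male 2 thus lay within PBS while the other 3 were far above it, and LPS female 2 also had a raised value of 79.2. Without LPS+DMA male 2, 15 of 16 striatal genes were without overlap with a median of 2.05, where 7.00% of all genes lay higher without overlap. Gng7, a striatal G protein subunit, had 12.7 to 24.6 FPKM in PBS and 63.3, 156, 54.3 and 27.8 in LPS+DMA, and Lrrc10b had 0.667 to 4.50 and 23.9, 65.7, 29.7 and 4.92.

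Thalamic genes were below 0 in 12 of 12 (median -0.78, LPS -0.19). Calb2, the calcium-binding protein calretinin, had 106, 75.3, 62.6 and 55.5 FPKM in PBS and 32.0, 23.5, 30.2 and 35.4 in LPS+DMA, without overlap (difference -1.25, adjusted p = 0.342, and -0.47 with the striatal score as a covariate). It was the lowest gene of the olfactory bulb list (8 of 13 above 0, median 0.11). It was also the lowest of the interneuron list (9 of 14 above 0, median 0.08), so it does not stand for either list. Cerebellar genes were above 0 in 1 of 20 (median -0.59, LPS 0.80), and without PBS female 1 in 9 of 20 (median -0.02). Regional composition of the tissue and expression within a region cannot be told apart in these libraries. With the striatal score as a covariate, no gene passed and Chil1 had a difference of -0.76 (adjusted p = 0.465). The striatal list mean was 1.74, 2.89, 1.94 and -0.30 from PBS in the LPS+DMA libraries, and -0.31 to 0.43 within PBS. A fit with this score therefore takes up part of the difference between the arms and cannot separate the 2.

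Among other glial lists, myelin genes of oligodendrocytes had 3 of 17 above 0 (median -0.59), but the list mean was -1.69 in LPS+DMA male 1, -0.21, -0.29 and -0.01 in the other 3, and from -0.88 to 0.54 within PBS. Opalin, a myelin glycoprotein, had 6.13, 4.70, 11.3 and 12.1 FPKM in PBS and 6.28, 4.70, 2.22 and 4.11 in LPS+DMA. Astrocyte genes had 7 of 17 above 0 (median -0.09, turning to 0.04 with the striatal score as a covariate), with lower values for S100b, a calcium-binding protein (85.4 to 174 FPKM in PBS, 55.5 to 74.5 in LPS+DMA), and for Gja1, a gap junction protein (15.8 to 20.6 FPKM in PBS, 12.96, 13.9, 5.61 and 15.5 in LPS+DMA). S100b and Gja1 were without overlap, at adjusted p = 0.382 and 0.376. The Gja1 difference was -0.69, and -0.37 without LPS+DMA male 1. Choroid plexus genes had 7 of 20 above 0 (median -0.05, LPS 1.21), and Ttr, their thyroid hormone carrier, was at 327 FPKM in PBS female 1 and 416 in LPS+DMA female 1 and at 0.576 to 18.7 in the other 6.

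Transcripts of the mitochondrial genome, which encode subunits of the respiratory chain, had 12 of 13 above 0 (median 0.25, LPS 0.16). mt-Nd5, a subunit of complex I, had 1878, 1742, 2199 and 2232 FPKM in PBS and 2344, 3051, 2970 and 2948 in LPS+DMA, without overlap (difference 0.49, 95% interval 0.27 to 0.71, adjusted p = 0.290). Nuclear genes of the same complexes had 6 of 24 above 0 (median -0.06). With equal totals the mitochondrial median was 0.10 with 11 of 13 above 0. Lpl, which releases fatty acids from lipoproteins, had 0.705 to 1.48 FPKM in PBS and 3.11, 4.83, 3.77 and 1.83 in LPS+DMA, and was at 1.09 ± 0.870 FPKM in LPS. It was the highest gene of the lysosomal and phagocytic microglia list (median -0.04), at a difference of 1.09 without overlap.

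The sexes were compared with 2 mice per arm and sex. No gene passed the test of a difference between sexes (1110 at an unadjusted p under 0.05, 5.67%). In females no gene passed (877 unadjusted, 4.48%). In males 1 of 19571 passed (0.00511%; 2565 unadjusted, 13.1%), the microRNA gene Mir7660 of 63 bases, which a library of fragments does not measure as mature microRNA. With LPS+DMA male 2 left out, when LPS+DMA male 1 stood alone for its group, 3126 genes passed in males and 952 passed the test between sexes.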

How the data were processed

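The authors deposited 1 table of FPKM values for 56748 genes and 12 libraries, with gene names, biotypes, lengths and GRCm39 coordinates. The submitters' processing notes list HISAT2 2.2.1 and STAR, featureCounts 2.0.6, fastp and GATK, edgeR 4.0.16 and DESeq2 1.42.0, with no role or order. Per the labels' protocols, both a stranded and an unstranded poly-T preparation are described, so overlapping antisense genes and near-identical copies (H2-K1 and H2-D1, Lyz2 and Lyz1, Ifit3 and Ifit3b) are uncertain. FPKM times gene length gave whole multiples of 1 step (tolerance 0.1 reads) for 100% of values up to 1000 reads, and those read numbers were used for depth, floors of 3 reads and 1 alternative fit. Mean depth was 36.2 megareads for PBS (SD 3.92, n = 4) and 32.2 for LPS+DMA (SD 4.18, n = 4), and floors cover counting error only.

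The 19571 genes that reached an FPKM of 0.5 in 2 or more of the 12 libraries were tested as log2(FPKM + 1) in R 4.3.3 with limma 3.58.1, with sex and arm as terms over all 12 libraries and trended, robust moderated variances, and p-values were adjusted by Benjamini-Hochberg. Sex differences used arm-by-sex means. The procedure was tested on simulated data, drawn as independent normal values for each gene and library. Those data held none of the regional or single-library differences seen here, so the simulation does not speak to them. Alternatives covered the pseudocount, filter, scaling, fit, variance model, tissue covariates and left-out libraries, and a striatal covariate and leaving out PBS female 1 with LPS+DMA male 1 were added after the data were seen.

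The comparison, the 50 gene lists (827 genes, 746 tested) and the naming rule were chosen with earlier results of these data known. The rule takes coding genes past the threshold, filled to 10 a direction by p, those with the largest differences without overlap, up to 3 genes of each list by p, a fixed inflammatory panel and genes with the smallest p for a sex difference. The text names part of these, and that part was reduced after a first look at outlying libraries. Promoter windows are RefSeq's (GRCm38.p6), matched by symbol.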

Additional observations from a re-analysis of the deposited data

Results flagged for a closer look

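Within each arm of 4 libraries, the highest or lowest library was set against the others for 69 genes, 207 groups in all. In 17 groups 1 library lay farther from its nearest neighbour than Dixon's 95% critical share of the range. The genes were chosen on these data and reduced after a first look at outlying libraries. The count therefore cannot be set against a chance rate.

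LPS+DMA male 1 was the outlying library for Per1 (60.6 FPKM against 13.6 to 15.7), Tef (80.2 against 47.9 to 52.9) and Saa3 (0.750 against 0 to 0.0295). LPS+DMA female 1 was the outlying library for S100a9, at 2.02 FPKM below 7.25 to 7.95 in the others. It was also the outlying library for mt-Nd5 (2344 FPKM below 2948 to 3051), for Ifi27l2a (1.90 above 0.498 to 0.628) and for Ttr (416 above 1.91 to 18.7). LPS+DMA male 2 held 0.170 FPKM of Gabra6, with the other 3 listed at 0.

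In PBS, female 1 held Gabra6 at 74.6 FPKM with the other 3 listed at 0, and Ttr at 327 FPKM against 0.576 to 5.19. PBS female 2 was highest for Glt8d1 (12.2 FPKM against 9.17 to 9.67) and Fkbp5 (3.95 against 2.83 to 2.99).

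In the LPS arm, female 2 was highest for the striatal genes Gng7 (53.6 FPKM against 9.10 to 12.8) and Lrrc10b (16.5 against 0.279 to 1.02), and for Macrod2 (5.70 against 3.98 to 4.22) and Lpl (2.38 against 0.556 to 0.867). LPS male 1 was highest for Tatdn3 (6.59 FPKM against 4.65 to 4.75).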

How the results depend on the processing

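The 2 calls in LPS+DMA against PBS remained 2 with pseudocounts of 0.1 and 0.5, a stricter filter, both rescalings and plain variances. The count was 0 without a filter, with the 8 libraries only, without the sex term, with voom on recovered reads, with choroid plexus and red blood cell covariates, with the striatum covariate, without the 4 libraries with Gabra6 above 1 FPKM, and without PBS female 1 and LPS+DMA male 1 together. It was 1 with the forebrain-hindbrain covariate and 1 with the replicate block. The labels do not say that numbers pair the mice, so the main fit had no block. After each arm-by-sex mean was subtracted, same-numbered libraries had correlations of -0.0705 to 0.452. Chil1 had adjusted p = 0.0979 with the block. Leaving out each library in turn gave 0 to 6 calls. Of the 4 libraries with Gabra6 above 1 FPKM, all but PBS female 1 belonged to the LPS arm.

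In males the count of 1 became 0 with either pseudocount, the stricter filter, the 8 libraries, the block, voom and without the 4 libraries, 3 with equal totals, 4 with plain variances, 4 without the pair of libraries and 8 without a filter, where females also had 8. Left-out libraries gave 0 to 3126 calls in males and 0 to 952 for the difference between sexes, which had 1 without the pair. Genes without overlap numbered 1300 to 2808 with a library left out and 2958 without the pair, since fewer libraries overlap less.

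The following differences changed sign, most of them near 0, with Ttr (0.51) and Gabra6 (-1.50) the larger, and the cause was not tested. Equal totals gave -0.096 for C1qa and -0.11 for H2-K1. The forebrain-hindbrain covariate gave 0.073 for Ifit3 and 0.51 for Gabra6. The striatum covariate gave -0.15 for C1qa, 0.052 for Isg15, 0.25 for Gfap and 1.03 for Gabra6. Without the 4 libraries Gfap was 0.024 and Gabra6 0.068. Without the pair Saa3 was -0.027, C1qa -0.065, H2-K1 -0.023 and Gabra6 0.36. Left-out libraries gave -0.040 to 0.15 for C1qa, -0.11 to 0.13 for H2-K1, -0.13 to 0.046 for Ifit3, -0.34 to 0.11 for Gfap, -0.57 to 1.66 for Ttr and -2.16 to 0.18 for Gabra6. With 4 mice an arm, the median 95% interval reached 0.37 to each side.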
